A study of Mus musculus with 8 samples.

Results

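The 41 interferon-stimulated genes described here were chosen by name, as every non-control probe on the array whose gene name equalled one of the 41 symbols. All 41 were on the array, through 70 probes, among 56605 non-control probes and 36666 gene names in all. Testing required a probe whose signal the scanner called well above background on 4 or more arrays, which held for 39 of the 41 and for 17565 genes in total. The samples were livers of male mice taken 8 h after acetaminophen (paracetamol), 4 from mice aged 8 weeks and 4 from mice aged 80 weeks, each hybridised to its own single-colour Agilent array. Every animal had received the drug, and untreated livers were not analysed here, so each comparison is between ages after treatment and none measures induction by the drug. Neither the dose nor the strain is given in the labels, which also do not say that the 4 samples of an age came from 4 animals; p-values therefore describe the scatter of these samples, and that scatter may be technical.

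Interferons are secreted when cells sense foreign or misplaced nucleic acid or when lymphocytes are activated. Type I interferons (α and β) signal through a complex that contains STAT2 and IRF9, binds an interferon-stimulated response element, written ISRE, and switches on antiviral genes such as the IFIT, OAS and MX families. Type II interferon (γ) acts through a γ-activated site, written GAS, and drives the GTPase families GBP and IRG that attack the vacuoles of intracellular parasites. Many genes answer to both kinds, and in the liver hepatocytes, Kupffer cells (resident macrophages) and endothelial cells can all carry the response. The 41 genes comprised 30 type I targets, 9 GBP and IRG GTPases, and the transcription factors IRF1 and IRF8. In whole liver, fewer cells of a type and less RNA per cell cannot be told apart.

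The promoters of many members show the letters these factors are known to read. Of the 20 members that hold the ISRE letters, 8 chosen examples are printed, Igtp and Irgm2 with the GAS letters beside them. Upstream stretches came from RefSeq windows on build GRCm38.p6 that reach from 250 bases before to 50 bases after a gene's start; 31 of the 41 members had a window. Capitals mark TTTCNNTTTC, the core of an ISRE, on either strand, and in Igtp and Irgm2 also TTCNNNGAA, the letters of a GAS, which read the same on both strands. Each sequence runs 5′ to 3′ on the gene's strand.
Isg15: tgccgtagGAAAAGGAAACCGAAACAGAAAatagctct
Ifit3: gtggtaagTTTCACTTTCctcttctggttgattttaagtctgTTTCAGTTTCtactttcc
Ifit3b: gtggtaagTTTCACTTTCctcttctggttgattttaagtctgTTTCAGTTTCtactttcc
Rsad2: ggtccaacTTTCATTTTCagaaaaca
Oas1a: cttctcggGAAATGGAAACTGAAAatct
Gbp3: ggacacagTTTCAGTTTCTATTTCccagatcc
Igtp: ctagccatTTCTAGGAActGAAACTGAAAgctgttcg
Irgm2: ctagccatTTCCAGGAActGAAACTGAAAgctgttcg

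The Isg15 stretch lies at chr4:156200867-156200904 on the minus strand and holds 3 overlapping ISRE matches that begin 78, 72 and 66 bases upstream of the start. The Ifit3 stretch lies at chr19:34583365-34583424 and the Ifit3b stretch at chr19:34607761-34607820, both on the plus strand. Their 60 bases differ at 0 positions, and the transcripts of these neighbouring copies are alike enough that each probe's signal may include the other. The Rsad2 stretch is at chr12:26456555-26456580 and the Oas1a stretch at chr5:120907526-120907553, both on the minus strand. The Gbp3 stretch is at chr3:142559991-142560022 on the plus strand. Igtp (chr11:58199503-58199539) and Irgm2 (chr11:58214894-58214930), both on the plus strand, have a GAS match directly before an ISRE match in an almost identical stretch.

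Across the 31 members with a window, 20 held the ISRE letters and 10 the GAS letters, against 3.99% and 9.55% of all 27025 genes with a window. All 7 GBP and IRG genes with a window held an ISRE match and 4 of them also a GAS match. Among the 22 type I targets with a window, 13 held an ISRE match and 4 a GAS match. Irf1 and Irf8 each held a GAS match and no ISRE match. A match describes letters and is not a measured binding site.

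The 8 arrays lay on 1 slide read in 1 scan, with the 8-week livers in row 1 and the 80-week livers in row 2, so age and position on the slide cannot be told apart. The number of probes called well above background ran from 24538 to 28536, and each array's 75th percentile signal lay between 155 and 353 intensity units. The first principal component of all tested genes, with 49.1% of the variance, set 8-week replicates 1 and 2 (-61.3 and -99.2) apart from the other 6 arrays (10.2 to 47.5). For that reason values without those 2 arrays, an alternative chosen after seeing the data, stand beside many of the results. Between the fits 11 of 39 members changed sign, and the share of all genes that did so was not computed.

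Interferon-stimulated genes as a set did not separate the ages. By limma's moderated test 0 of the 39 tested members passed an adjusted p of 0.05 (Benjamini-Hochberg over 17565 genes), where 0.359% of all tested genes did. The lowest adjusted p of any member was 0.247. At an unadjusted p under 0.05 there were 4 members, Ifi27 higher in the 80-week livers and Oasl2, Oas2 and Iigp1 lower, against a background of 14.1% of all genes (7.91% higher and 6.14% lower). The share among members, 4 of 39, was no larger than that background. The groups did not overlap for 1 of 39 members, Ifi27, where 8.38% of all tested genes had groups that did not overlap, and 4.62% had the 80-week livers higher in that way. Differences of at least 2-fold were found for 3 of 39 members, against 7.15% of all genes.

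In sign, 17 members were higher and 22 lower in the 80-week livers, while 52% of all tested genes were higher. The median difference, given throughout as 80-week minus 8-week on the log2 scale, was -0.08 over the 28 tested type I targets (12 higher, 16 lower) and 0.17 over the 9 GBP and IRG genes (5 higher, 4 lower). Over all tested genes it was 0.02. Both signs turned when a single array was left out. The type I median became -0.32 without 8-week replicate 1 and 0.11 without 8-week replicate 4, and the GBP and IRG median became -0.13 without 8-week replicate 1. Without 8-week replicates 1 and 2 together, 33 of 39 members were lower in the 80-week livers, as were 10099 of all 17565 tested genes. In that fit the 2 class medians were -0.39 and -0.26 against -0.06 over all genes, and 0 members passed.

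**Figure D1:**
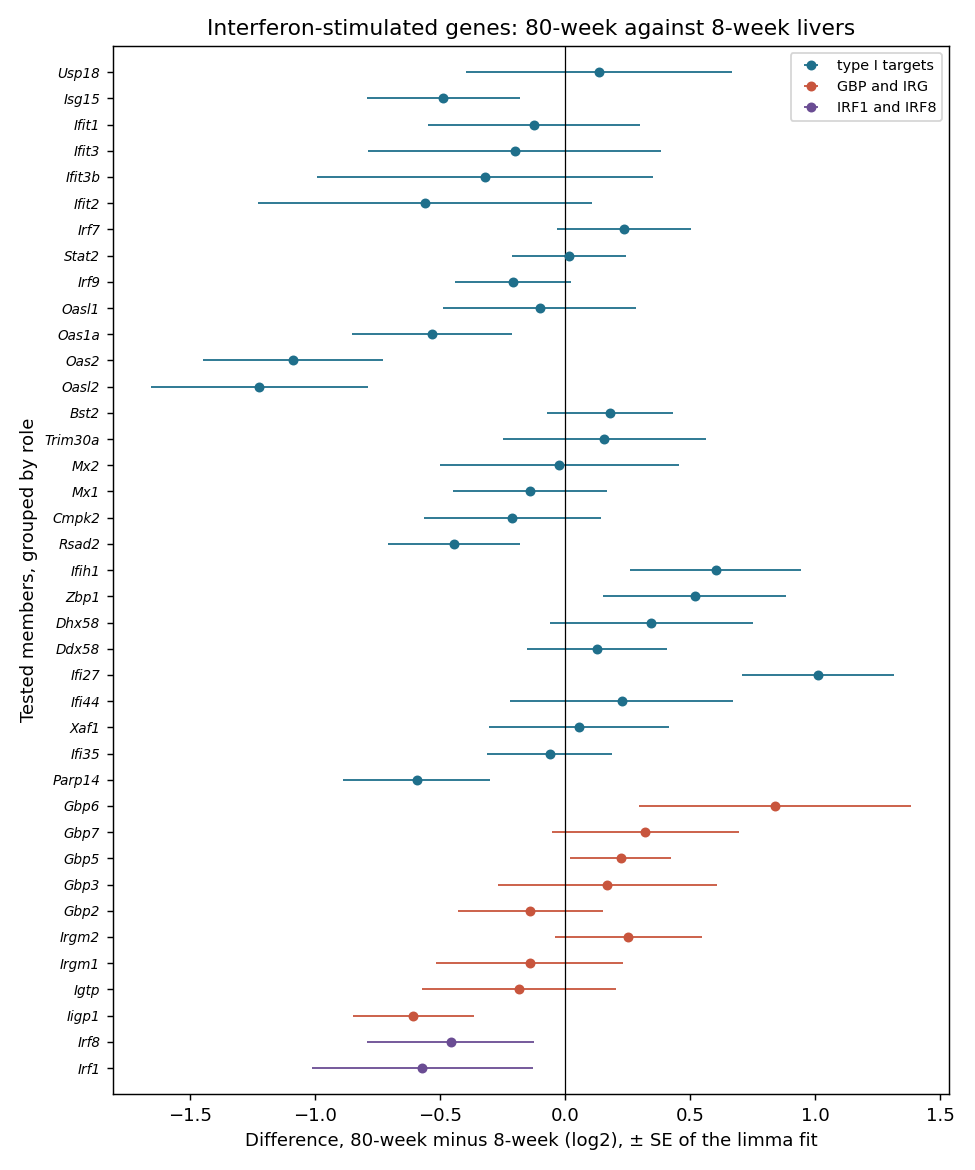
Difference between 80-week and 8-week livers (log2, horizontal axis) for each of the 39 tested members, ordered by role (vertical axis); points are limma estimates, bars are ± 1 SE, and colours mark the 3 classes. The points lie on both sides of 0, from -1.22 (Oasl2) to 1.01 (Ifi27), and no member passed an adjusted p of 0.05.

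What the members shared was their order among replicates. Replicate 1 was the lowest of the 4 8-week arrays for 29 of 39 members (74.4%), although it was lowest for only 19.8% of all tested genes. Replicate 4 was the highest 8-week array for 24 members (61.5%, against 32.8% of genes). In the 80-week livers replicate 2 was the lowest for 27 members (69.2%, against 23.3%) and the highest for 0, and replicate 1 was the highest for 23 (59.0%, against 27.7%). The array that stood farthest out over the whole genome, 8-week replicate 2, was the lowest 8-week array for 44.1% of all genes but for only 4 members. The order of arrays in the members thus differed from the order over the whole genome.

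The lowest array of each age was the same in both classes. Replicate 1 was the lowest 8-week array for 22 of 28 type I targets and for 7 of 9 GBP and IRG genes, and replicate 2 was the lowest 80-week array for 21 of 28 and 6 of 9. After each gene was centred on its mean over 8 arrays, the type I median was -0.70, -0.00, 0.23 and 0.45 in 8-week replicates 1 to 4 and 0.37, -0.58, -0.05 and 0.20 in 80-week replicates 1 to 4. The GBP and IRG median was -0.81, 0.23, 0.15 and 0.48 in the 8-week and 0.32, -0.37, -0.02 and 0.43 in the 80-week arrays. Over all tested genes the same median stayed between -0.14 and 0.09. The highest 80-week median was in replicate 1 for the type I targets and in replicate 4 for the GBP and IRG genes.

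**Figure D2:**
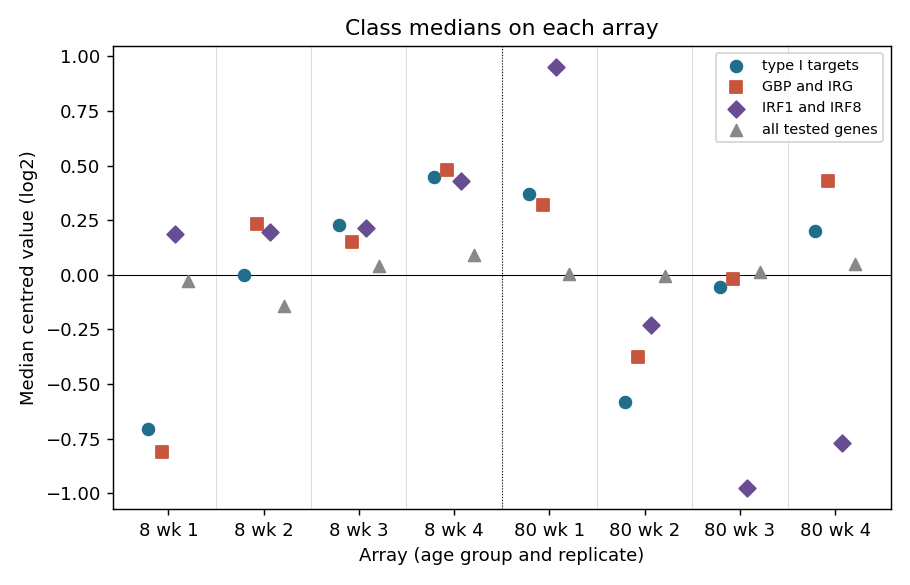
Median centred value (log2, vertical axis) of the type I targets, the GBP and IRG genes, IRF1 and IRF8, and all tested genes on each of the 8 arrays (horizontal axis). Type I targets and GTPases are low together on 8-week replicate 1 (-0.70 and -0.81) and 80-week replicate 2 (-0.58 and -0.37), while all tested genes stay between -0.14 and 0.09.

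The members also spread more widely than most genes within the 80-week livers, with a median SD of 0.52 against 0.28 over all tested genes. In the 8-week livers the medians were 0.50 and 0.40. For 32 of 39 members the difference between ages was smaller than the range of replicates in each age, which also held for 75.7% of all tested genes. Markers of other cells moved across the same arrays. The Kupffer cell list (all 8 markers tested, 7 of 8 higher in the 80-week livers) had a mean centred level from -0.55 to 0.19 in the 8-week and from -0.35 to 1.06 in the 80-week arrays, highest in 80-week replicate 1, where 23 of 39 members had their highest 80-week value. In the 8-week livers the list's mean was highest in replicate 1, where 29 of 39 members were lowest. Its median was instead highest in replicate 4 (0.05, against -0.01 in replicate 1), where 24 members had their highest 8-week value. The plasmacytoid dendritic cell list, whose cells are a known source of type I interferon, had 4 of 8 markers tested and ranged from -0.39 to 0.28 and from 0.05 to 0.12. Of the T and NK cell list, 5 of 10 markers were tested, with a mean from -0.92 to 0.42 and from -0.19 to 0.56, and Cd3g, Cd8a, Klrb1c and Ncr1 were above background on 0 of 8 arrays. The hepatocyte list, with all 8 markers tested, ranged from -0.87 to 0.44 and from -0.13 to 0.35. The sinusoidal endothelial list, with 7 of 7 tested, ranged from -0.28 to 0.41 and from -0.34 to 0.42. The B and plasma cell list, with 3 of 6 tested and all 3 higher, had means from -2.17 to -0.48 and from 0.04 to 1.83. Its medians overlapped, from -1.14 to 0.07 and from -0.39 to 1.20. In it Jchain, above background on 1 of 4 8-week arrays, passed the threshold (5.41, limma adjusted p = 0.0127). The part of these cells in the members' values was not tested.

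**Figure D3:**
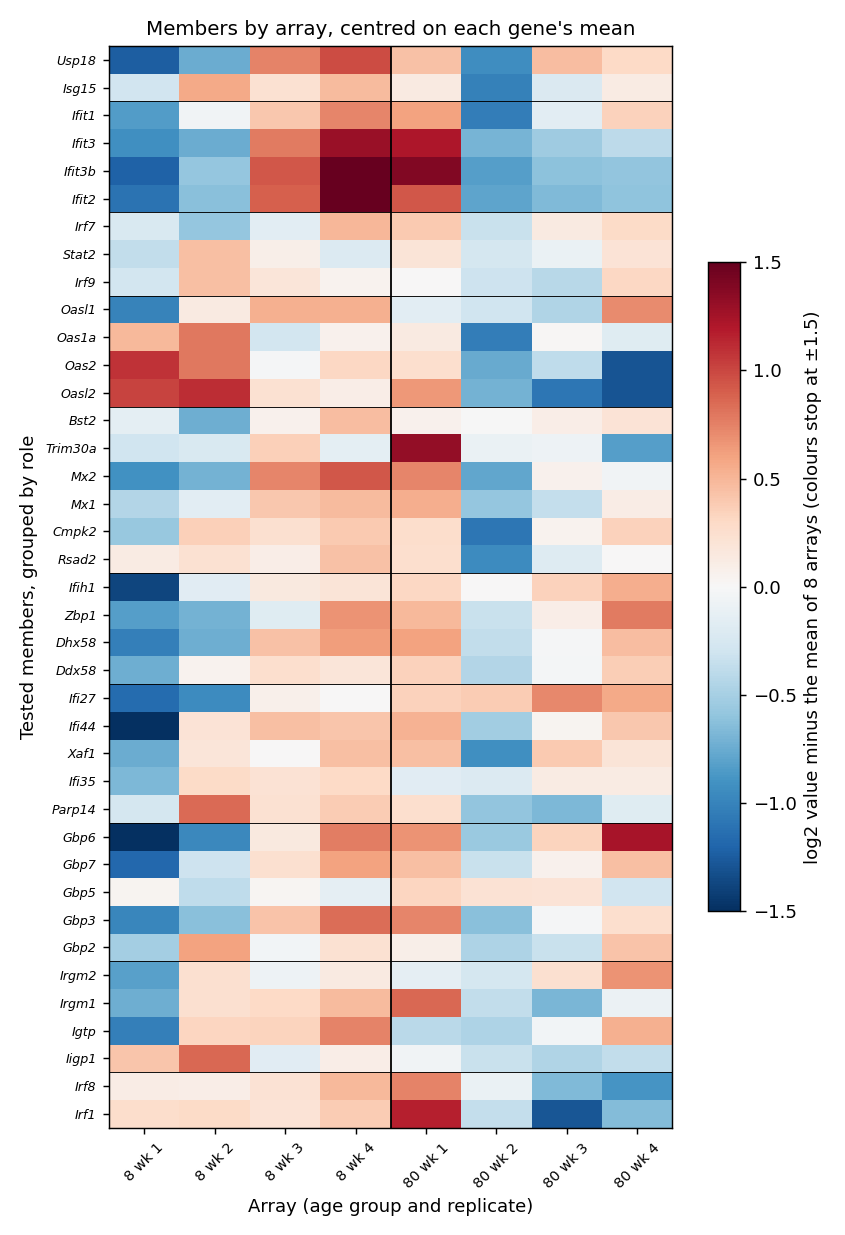
Level of each of the 39 tested members on each array (log2, minus the gene's mean over 8 arrays; red above, blue below, colours ending at ±1.5), with arrays on the horizontal axis and members by role on the vertical axis; the thick line parts the ages. The columns of 8-week replicate 1 and 80-week replicate 2 are mostly blue, whereas Oasl2, Oas2 and Oas1a are red in 8-week replicates 1 and 2.

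ISG15, an interferon-induced ubiquitin-like protein that is conjugated to other proteins, was measured by 1 probe at chr4:155573649-155573708 of build mm9, the build of the array's coordinates. Its level, on the log2 scale on which 0 is an array's 75th percentile, was 3.15, 4.01, 3.67 and 3.91 in 8-week replicates 1 to 4 and 3.58, 2.42, 3.22 and 3.57 in 80-week replicates 1 to 4. The groups overlapped, with 80-week replicate 2 the lowest of the 8. The difference was -0.49 (SE 0.31; limma, adjusted p = 0.471). Usp18 encodes the protease that removes ISG15 and damps the type I receptor. Its level was -0.14, 0.36, 1.85 and 2.08 in the 8-week and 1.55, 0.18, 1.57 and 1.40 in the 80-week livers, so the low arrays were 8-week replicates 1 and 2 and 80-week replicate 2. Its difference was 0.14 (SE 0.53; limma, adjusted p = 0.921) with all arrays and -0.79 without 8-week replicates 1 and 2.

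The 4 IFIT genes, whose proteins bind viral RNA and block its translation, were all lower in the 80-week livers in the fit to all 8 arrays, by a median of -0.26, and none passed. The median was -0.66 without 8-week replicate 1, -0.74 without 80-week replicate 1 and -1.26 without 8-week replicates 1 and 2. Leaving out other single arrays turned the sign of Ifit1, Ifit3 and Ifit3b. In the 8-week livers this role had the widest spread of all, a median SD of 1.19. Ifit2 was -3.22, -2.74, -1.21 and -0.14 in the 8-week and -1.17, -2.90, -2.77 and -2.71 in the 80-week livers, a difference of -0.56 (SE 0.67; limma, adjusted p = 0.708) that became -1.71 without 8-week replicates 1 and 2. Ifit3 was 0.49, 0.67, 2.19 and 2.71 in the 8-week and 2.63, 0.72, 0.88 and 1.02 in the 80-week livers. In both genes the high arrays were 8-week replicates 3 and 4 and 80-week replicate 1, and the other 5 lay well below them. Ifit3b, on its near-identical copy's pattern, ran from -1.74 to 0.98 and from -1.35 to 0.87. Ifit1 was -1.56, -0.77, -0.31 and 0.02 in the 8-week and -0.11, -1.76, -0.87 and -0.38 in the 80-week livers, with replicate 1 and replicate 2 lowest in their ages. Replicate 1 was the lowest 8-week array and replicate 2 the lowest 80-week array for all 4 IFIT genes, and replicate 1 was the highest 80-week array for all 4.

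The factors that carry the type I signal moved little. Stat2 and Irf9 encode parts of the complex that binds the ISRE. Irf9 was 2.77, 3.51, 3.24 and 3.11 in the 8-week and 3.05, 2.74, 2.64 and 3.36 in the 80-week livers, a difference of -0.21 (SE 0.23; limma, adjusted p = 0.691). Stat2 differed by 0.02 (SE 0.23; limma, adjusted p = 0.979) and lay between 2.39 and 3.20 on all 8 arrays. Irf7, the factor that amplifies interferon production, was 4.79, 4.44, 4.86 and 5.52 in the 8-week and 5.41, 4.68, 5.15 and 5.30 in the 80-week livers, a difference of 0.24 (SE 0.27; limma, adjusted p = 0.694). In each of these 3 genes the groups overlapped.

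The OAS family, whose active enzymes sense double-stranded RNA and switch on the RNA-cutting enzyme RNase L, had 4 of 6 members tested. All 4 tested members were lower in the 80-week livers, with a median of -0.81, and none passed. All 4 were also lower under quantile scaling (median -0.81), under median scaling (-0.91) and without 8-week replicates 1 and 2 (-0.64). Oasl1, the weakest of them, turned its sign in 3 of 17 alternative settings. Oasl2, probed at chr5:115362168-115362227 (mm9), was 0.26, 0.35, -0.53 and -0.67 in the 8-week livers and -0.11, -1.47, -1.84 and -2.06 in the 80-week livers. Of the 80-week arrays, replicate 1 reached into the 8-week range and the other 3 lay below it. The difference of -1.22 (SE 0.43) was the largest among the members with all arrays and had an adjusted p of 0.300 in limma. Without 8-week replicates 1 and 2 it was -0.77, smaller than that of Ifit2. Oas2, probed at chr5:121180343-121180402, was 1.58, 1.28, 0.48 and 0.81 in the 8-week and 0.75, -0.27, 0.12 and -0.80 in the 80-week livers. Here too 80-week replicate 1 overlapped the 8-week livers. The difference was -1.09 (SE 0.36; limma, adjusted p = 0.279), and without 8-week replicates 1 and 2 it was -0.70.

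Oas1a was 2.03, 2.32, 1.26 and 1.59 in the 8-week and 1.66, 0.50, 1.55 and 1.36 in the 80-week livers, a difference of -0.53 (SE 0.32) that became -0.16 without 8-week replicates 1 and 2. In Oasl2, Oas2 and Oas1a, 8-week replicates 1 and 2 were both above replicates 3 and 4, an order found in 24.1% of all tested genes and in only 1 other member, Iigp1. Oasl1, which in mice restrains IRF7 translation, did the reverse and was lowest in 8-week replicate 1 (3.03 against 4.16 to 4.56). The remaining pair was near the detection limit. Oas3 was above background on 2 of 4 8-week arrays and Oas1g on 1 of 4, both on 0 of 4 80-week arrays, and no fold can be given for either. Oas1a and Oas1g are close paralogs whose probes may share signal.

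The other antiviral effectors showed no shared direction, with 2 of 6 higher and 4 lower and a median of -0.08. Mx1 and Mx2, dynamin-like GTPases that trap viral components, differed by -0.14 (SE 0.31) and -0.02 (SE 0.48), and by -0.51 and -0.84 without 8-week replicates 1 and 2. Rsad2, which encodes viperin, was 2.09, 2.19, 2.06 and 2.40 in the 8-week and 2.21, 1.01, 1.77 and 1.96 in the 80-week livers. Only 80-week replicate 1 lay within the 8-week range. The difference was -0.44 (SE 0.26; limma, adjusted p = 0.448), and the groups of a second, dimmer Rsad2 probe did not overlap (-0.54; limma over single probes, adjusted p = 0.306). Non-overlap was found for 4 of the 59 tested member probes, against 8.14% of all tested probes. Cmpk2, the neighbour of Rsad2 that makes nucleotides for mitochondrial DNA, differed by -0.21 (SE 0.36). Bst2, the tether of budding virions, differed by 0.18 (SE 0.25) and was nearly level in the 80-week livers (5.01 to 5.22) while it ran from 4.28 to 5.48 in the 8-week livers. Trim30a differed by 0.16 (SE 0.41) on its brightest probe and by -0.34 and -0.68 on the others, so its direction depends on the probe.

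**Figure D4:**
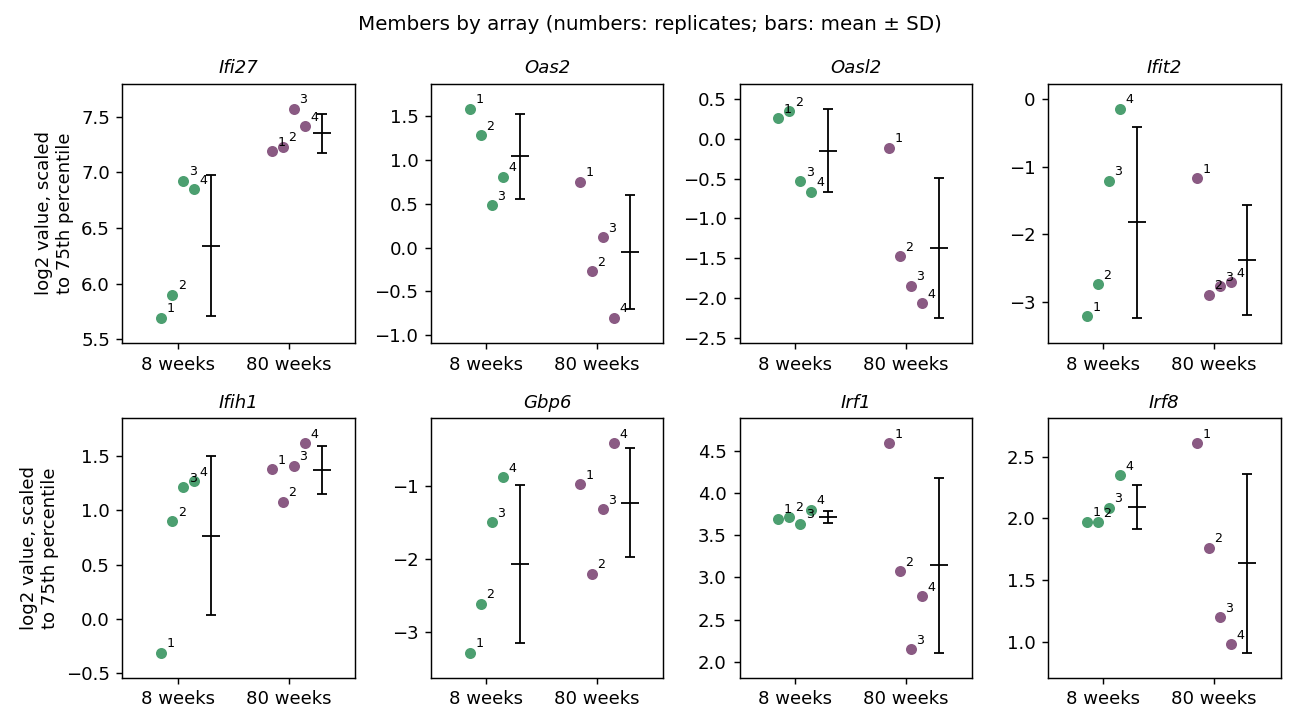
Level of 8 members on each array (log2, scaled to the array's 75th percentile; vertical axis) in 8-week and 80-week livers; numbers are replicates and bars the mean ± SD of 4. Ifi27 is the only member whose groups part, Ifit2 splits each age, Oas2 and Oasl2 fall to -0.80 and -2.06, and Irf1 spreads over 2.45 in the 80-week against 0.17 in the 8-week livers.

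The 4 sensors of nucleic acid were all higher in the 80-week livers on their brightest probes, by a median of 0.43, and none passed. Ifih1, which encodes the RNA sensor MDA5, was -0.31, 0.90, 1.21 and 1.27 in the 8-week and 1.38, 1.08, 1.41 and 1.61 in the 80-week livers. Of the 8-week arrays, replicate 1 was far below the rest and replicates 3 and 4 lay within the 80-week range. The difference was 0.60 (SE 0.34; limma, adjusted p = 0.434), and 0.13 without 8-week replicates 1 and 2. A dimmer Ifih1 probe, above background on 2 of 4 8-week arrays, had groups that did not overlap (1.13; limma over single probes, adjusted p = 0.228). Zbp1, which senses Z-form nucleic acid and can trigger necroptosis, differed by 0.52 (SE 0.37). Dhx58, encoding LGP2, differed by 0.35 (SE 0.41), and Ddx58, encoding RIG-I, by 0.13 (SE 0.28). The other tested Ddx58 probes had opposite signs (-0.06 and 0.14). In all 4 genes 8-week replicates 1 and 2 were both below replicates 3 and 4, and without them 2 of 4 sensors were higher and 2 lower, with a median of -0.07.

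Ifi27 had the lowest p of all members. Its protein sits in the inner mitochondrial and nuclear membranes, and the gene is counted here among the type I targets. On the probe at chr12:104678353-104678412 (mm9) it was 5.69, 5.90, 6.92 and 6.85 in the 8-week and 7.19, 7.23, 7.57 and 7.41 in the 80-week livers. Every 80-week array was above every 8-week array, and 8-week replicates 1 and 2 were the lowest. The means were 6.34 ± 0.64 and 7.35 ± 0.18 (SD, n = 4), a difference of 1.01 (SE 0.30), or 2.01-fold, with an adjusted p of 0.247 in limma. A second probe gave 2.11, 2.02, 3.01 and 3.32 against 3.69, 3.82, 3.91 and 3.68, again with no overlap and a difference of 1.16. Without 8-week replicates 1 and 2 the difference on the first probe was 0.47.

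The other 4 type I targets in this role were Xaf1, a partner of apoptosis inhibitors, Ifi35, Ifi44 and Parp14, a mono-ADP-ribosyltransferase. Parp14 differed by -0.59 (SE 0.29; limma, adjusted p = 0.386) and ran from 1.41 to 2.52 in the 8-week and from 0.99 to 1.93 in the 80-week livers. Xaf1 differed by 0.05 (SE 0.36), Ifi35 by -0.06 (SE 0.25) and Ifi44 by 0.23 (SE 0.45). In all of these 4, and in Ifi27, 8-week replicate 1 was the lowest 8-week array.

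The GBP proteins, which coat and break open pathogen vacuoles, were higher in the 80-week livers for 4 of 5 genes, with a median of 0.22. None passed, and without 8-week replicates 1 and 2 only 1 of 5 was higher. Gbp6 was -3.28, -2.61, -1.49 and -0.88 in the 8-week and -0.97, -2.20, -1.32 and -0.41 in the 80-week livers. The 2 lowest of the 8 were 8-week replicates 1 and 2. The difference was 0.84 (SE 0.55; limma, adjusted p = 0.482), and without those arrays it was -0.04. Gbp3 was -0.27, 0.08, 1.15 and 1.56 in the 8-week and 1.44, 0.09, 0.70 and 0.97 in the 80-week livers, the order of arrays seen in Usp18 and Mx2, with 8-week replicates 1 and 2 and 80-week replicate 2 low; its difference of 0.17 (SE 0.44) became -0.55 without the former pair. Gbp7 differed by 0.32 (SE 0.37), Gbp2 by -0.14 (SE 0.29) and Gbp5 by 0.22 (SE 0.20). The 2 tested Gbp5 probes had opposite signs (0.22 and -0.40).

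The IRG proteins, smaller GTPases that load onto or regulate loading onto the same vacuoles, were lower in the 80-week livers for 3 of 4 genes, with a median of -0.16. Iigp1, whose product assembles on parasite vacuoles, was 7.17, 7.62, 6.58 and 6.86 in the 8-week and 6.70, 6.42, 6.30 and 6.38 in the 80-week livers. Only 80-week replicate 1 lay within the 8-week range. The difference of -0.61 (SE 0.24) had an adjusted p of 0.329 in limma, and without 8-week replicates 1 and 2, the highest of the 8, it was -0.27. A second Iigp1 probe, at a separate place on the same chromosome, gave 0.35 (SE 0.95) and ran from -3.00 to 1.22 in the 80-week livers, so the probes did not follow each other. Igtp, which encodes IRGM3, was 2.11, 3.45, 3.47 and 3.87 against 2.72, 2.67, 3.09 and 3.67, a difference of -0.18 (SE 0.39). Its neighbour Irgm2, with the almost identical promoter stretch printed above, differed by 0.25 (SE 0.30), running from 1.53 to 2.59 in the 8-week and from 2.07 to 3.02 in the 80-week livers. Both were lowest in 8-week replicate 1 and highest of the 80-week livers in replicate 4. Irgm1 differed by -0.14 (SE 0.37), and 3 of its 4 tested probes ran between -0.15 and -0.12, while a dim one gave 0.99.

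On their brightest probes Irf1 and Irf8 were level in the 8-week livers and spread in the 80-week livers. IRF1 is the factor that relays interferon-γ to later targets, and IRF8 also shapes monocytes and dendritic cells. Irf1 was 3.70, 3.72, 3.64 and 3.81 in the 8-week and 4.59, 3.07, 2.14 and 2.78 in the 80-week livers. Irf8 was 1.97, 1.97, 2.09 and 2.35 in the 8-week and 2.61, 1.76, 1.20 and 0.98 in the 80-week livers. In both, 80-week replicate 1 was above every 8-week array and the other 3 80-week arrays below every one. That order was found in 0.700% of all tested genes, in no other tested member, and in 5 of 30 type I targets outside the members (Ifi204, Ifi205, Ifitm1, Phf11d and Slfn8, named after their values were seen). The differences were -0.57 (SE 0.44; limma, adjusted p = 0.556) and -0.46 (SE 0.33; limma, adjusted p = 0.530). Irf1 had an SD of 0.07 in the 8-week and 1.04 in the 80-week livers, and a second probe of each gene gave differences of -0.59 and -0.37. The second Irf8 probe was not level in the 8-week livers (-1.09, -1.29, -1.41 and -2.10). It was -0.70, -1.73, -2.16 and -2.77 in the 80-week livers. There 80-week replicate 2 lay above 8-week replicate 4, so that probe did not keep the order. The mean of the neutrophil markers had a like order in the 80-week livers, with a centred level of 0.41, 0.32, -0.75 and -0.95 in replicates 1 to 4. It covered 6 of 8 markers (5 of 6 lower), and Ngp was above background on 0 of 8 arrays. In the 8-week livers it lay between 0.07 and 0.65, so 80-week replicate 2 was within that range. S100a8, S100a9, Retnlg and Cxcr2 were higher in 80-week replicates 1 and 2 than in 3 and 4. Ly6g was instead highest in 80-week replicate 4 (-1.96, -2.05, -1.70 and -0.45), and Elane stayed between 1.28 and 1.49 there. The conventional dendritic cell list, with 4 of 7 tested and 3 of 4 lower, was at 0.50, 0.01, -0.46 and -0.40 in the 80-week livers and between -0.27 and 0.47 in the 8-week livers. The monocyte list, with 7 of 8 tested and 6 of 7 lower, ranged from -0.13 to 1.20 and from -0.76 to -0.01. Its medians overlapped more, from -0.07 to 0.60 and from -0.66 to 0.12. The largest difference in that list was that of Chil3, -3.73 (SE 0.80; limma, adjusted p = 0.117). The part of these cells in Irf1 and Irf8 was not tested.

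Upstream of the members, the ligands themselves were mostly not measurable. Of 22 interferon genes listed, 17 were on the array and 13 of these were above background on 0 of 8 arrays, Ifnb1 and Ifng among them. The 3 tested ligands were Ifna9 (0.12), Ifnab (-0.41) and Ifnl3 (0.29), with limma adjusted p-values of 0.854, 0.605 and 0.467. Among 9 tested receptor and kinase genes 4 were higher and 5 lower, and none passed. Ifngr2, the second chain of the interferon-γ receptor, was higher by 0.42 (SE 0.18; limma, adjusted p = 0.347) with groups that did not overlap, and Ifngr1, its first chain, differed by -0.47 (SE 0.24). Il10rb, shared with the receptor of type III interferon, differed by -0.66 (SE 0.35). Without 8-week replicates 1 and 2 the 2 latter were -0.12 and -0.03.

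Of 12 tested genes that induce interferon, 9 were lower in the 80-week livers, with a median of -0.34, and none passed. Tmem173, which encodes the DNA-sensing adaptor STING, had the lowest p and a difference of -1.11 (SE 0.49; limma, adjusted p = 0.355), and without 8-week replicates 1 and 2 it was -0.66 and the list's median -0.04. The kinase gene Tbk1 differed by -0.37 (SE 0.18) and the adaptor gene Ticam1 by 0.52 (SE 0.28). Among 9 brakes on the response, 3 were higher and 6 lower. Socs3, an inhibitor of cytokine receptor signalling, differed by 0.91 (SE 0.38; limma, adjusted p = 0.339), Samhd1 by 0.40 (SE 0.21) and Irf2 by -0.42 (SE 0.28, and 0.07 without 8-week replicates 1 and 2).

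Type I targets outside the 41 showed no shared direction either. Of 30 further type I targets tested, 13 were higher and 17 lower, with a median of -0.06, or -0.21 without 8-week replicates 1 and 2, and none past the threshold. Ddx60, a helicase that aids RIG-I, differed by 1.52 (SE 0.41; limma, adjusted p = 0.197), Ifi27l2b, a relative of Ifi27, by 1.94 (SE 0.53; adjusted p = 0.207), and Slfn2 by -0.70 (SE 0.25; adjusted p = 0.305). Ddx60 was above background on 1 of 4 8-week and 3 of 4 80-week arrays. Of 9 further GBP and IRG genes 5 were higher and 4 lower, with a median of 0.14 that became -0.35 without 8-week replicates 1 and 2. The 3 with the lowest p were Gm4951 (-0.33), Gbp10 (0.23) and 9930111J21Rik2 (0.24). Gbp2b, above background on 0 of 4 8-week and 3 of 4 80-week arrays, was at least 1.17-fold higher in the 80-week livers.

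Of 14 tested targets of interferon-γ other than the GTPases, a list that includes Irf1, 9 were higher in the 80-week livers and none passed. Their median was 0.39, against 0.02 over all genes, and 0.15 against -0.06 without 8-week replicates 1 and 2. At an unadjusted p under 0.05, 5 of 14 were higher, against 7.91% of all genes, and all 5 serve antigen presentation. The list was rich in such genes by choice. Psmb10 (0.27, SE 0.21) and Ciita (0.92, SE 0.41) serve it too and stayed above that p. Without 8-week replicates 1 and 2 the count of higher genes under that p fell to 2 of 14. In that fit 1584 of 17565 genes had such a p in either direction. Psmb9, a catalytic subunit of the immunoproteasome, was -0.06, 0.18, 1.25 and 0.93 in the 8-week and 1.88, 1.29, 1.96 and 2.54 in the 80-week livers. Its groups did not overlap, and the difference was 1.34 (SE 0.35; limma, adjusted p = 0.190). Cd74, the MHC class II invariant chain, differed by 1.13 (SE 0.32; limma, adjusted p = 0.219), Psmb8 by 0.68 (SE 0.24), Tap1 by 0.65 (SE 0.28) and Tap2 by 0.59 (SE 0.24). Without 8-week replicates 1 and 2 the differences were 0.82 for Psmb9, 0.77 for Cd74, 0.43 for Psmb8, 0.24 for Tap1 and 0.19 for Tap2.

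Cxcl9, which answers mainly to interferon-γ, differed by 0.51 (SE 0.38; limma, adjusted p = 0.537). Cxcl10, which answers to both kinds of interferon, was 4.41, 4.59, 6.45 and 6.45 in the 8-week livers and ran from 1.90 in replicate 3 to 5.91 in replicate 4 of the 80-week livers, a difference of -1.10 (SE 0.88; limma, adjusted p = 0.567) that became -2.08 without 8-week replicates 1 and 2. Among the GBP and IRG members, 0 of 9 were higher at an unadjusted p under 0.05. Whether the antigen-presentation genes differ from the GTPases in their change with age was not tested.

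**Figure D5:**
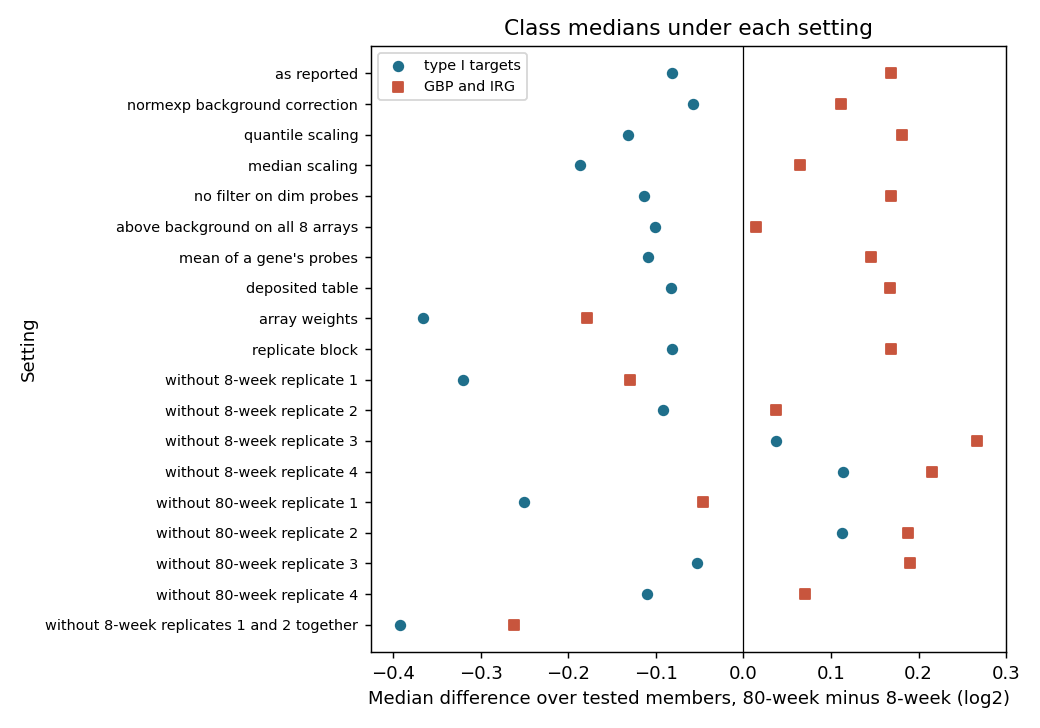
Median difference between ages (log2, horizontal axis) over the 28 tested type I targets and the 9 GBP and IRG genes under the reported setting and each alternative (vertical axis). The type I median runs from -0.39 to 0.11 and the GTPase median from -0.26 to 0.27, and both cross 0.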

How the data were processed

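Per the file headers, Feature Extraction 10.7.3.1 had subtracted the background from the deposited spot intensity values of the 8 arrays; the submitters' processing notes name version 9.1. The authors' deposited table of intensity values held the same processed signals (100% of 56605 probes within 1%), with no scaling between arrays. Values used here were log2 of the deposited processed signal minus each array's 75th percentile, with control spots and outlier spots left out, spots of a probe averaged, and each gene represented by its brightest tested probe. Probes well above background on at least 4 of 8 arrays were tested with limma 3.58.1 in R 4.3.3 (lmFit, eBayes; all 8 arrays, 1 coefficient for age), with Benjamini-Hochberg adjustment over 17565 genes and a threshold of 0.05. The number of arrays limits the precision. On simulated data with 50 genes changed at each size, this comparison recovered 22%, 72%, 88% and 96% of 2-, 4-, 8- and 16-fold changes among 17565 genes and called 13 unchanged ones.

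The members and lists were chosen with earlier results of these data known. Every member is named. Values per array are given for members past the threshold, for the smallest p and the largest difference in each role, and for members whose groups do not overlap, with some others added for their pattern across arrays after their values were seen. Each pathway list names its 3 smallest p-values and Ifng, Ifnb1, Cxcl9 and Cxcl10. Tap1, Tap2, Psmb10, Ciita and Gbp2b were named after their values were seen. So were the markers Jchain, Chil3, S100a8, S100a9, Retnlg, Cxcr2, Ly6g and Elane. Gene symbols are those of the array's design, and all 41 matched a symbol in RefSeq's gene table. Motifs were searched as plain letters in RefSeq promoter windows. Alternatives changed the background correction, scaling, filter, probe rule, array weights, replicate block and the arrays kept. A gene of the pathway lists is not reported here.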

Additional observations from a re-analysis of the deposited data

Results flagged for a closer look

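In 7 of 78 groups of 4 arrays (8.97%, where chance gives about 5%, or 1 in 20), 1 array lay far from the other 3 by Dixon's criterion. The share over all tested genes was not computed. Members also moved together across arrays, so the groups are not independent and no excess particular to these genes can be read from the share. In the 8-week livers this was replicate 1 in each of 3 genes, low for Cmpk2 (-0.74, others 0.07 to 0.22), Ifi44 (-4.21, others -2.49 to -2.24) and Ifi35 (3.43, others 4.32 to 4.40). In the 80-week livers replicate 1 was high for Ifit2 (-1.17, others -2.90 to -2.71), Ifit3 (2.63, others 0.72 to 1.02) and Ifit3b (0.87, others -1.35 to -1.11), of which the last pair are near-identical copies. Replicate 2 of the 80-week livers was low for Usp18 (0.18, others 1.40 to 1.57).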

How the results depend on the processing

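The count of members past the threshold was 0 under all 17 other ways of processing and without 8-week replicates 1 and 2. The lowest adjusted p of any member was 0.0924 (Oasl2 without 80-week replicate 1; limma), and across the alternatives the lowest ran up to 0.569. Of 39 members, 16 kept their sign throughout and 23 turned it in at least 1 alternative. The type I median ran from -0.32 to 0.11 when 1 array was left out, being positive without 8-week replicate 3, 8-week replicate 4 or 80-week replicate 2; it was -0.37 with array weights. The GBP and IRG median ran from -0.13 to 0.27 and was negative without replicate 1 of either age and with array weights (-0.18). The count over all genes, 63, became 21 when signal above background was required on all 8 arrays, 172 with array weights, 14 without 8-week replicates 1 and 2, and 27 to 77 when 1 array was left out (27 without 8-week replicate 1, 38 and 39 without 80-week replicates 3 and 4). Median scaling shifted the median of all genes by -0.10; relative to it the class medians kept their signs. With the replicate number, which is also the column on the slide, as a block, 0 members and 70 genes passed. Same-numbered arrays correlated at 0.03 to 0.14, 1 of them under 0.1, and differently numbered arrays at -0.21 to 0.23. The numbers were therefore not taken as pairs. Signal near background limits Oas1g, Oas3 and the ligands.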
